A study of Mus musculus with 8 samples.

Results

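The 10 genes described here carry high-energy phosphate between mitochondria and the sites of ATP use in the heart. They were chosen by name from the 33249 genes in the deposited table, and all 10 were found there and passed the filter on low values. They are the creatine kinases Ckm, Ckmt2, Ckb and Ckmt1, the creatine transporter Slc6a8, the creatine synthesis enzyme Gatm, adenylate kinase Ak1, the adenine nucleotide translocases Slc25a4 and Slc25a5, and the outer membrane channel Vdac1. They were followed in 8 RNA sequencing libraries from mouse hearts, labelled as 2 genotypes (fl/fl and CKO) with sham surgery or myocardial infarction (MI), 2 libraries to a group. Both genotypes carried floxed Piezo1 alleles. CKO (Piezo1 Cko) mice also carried Myh6-MerCreMer, a tamoxifen-inducible Cre driven by the cardiomyocyte promoter of Myh6, and fl/fl mice were littermates lacking this transgene. Tamoxifen was given at 4 weeks of age and surgery took place at 8 weeks, and no source used here says whether fl/fl littermates were given tamoxifen as well. For MI, the left anterior descending artery was tied off for good and tissue was taken at day 42, and sham surgery left out the ligation. The age of the sham hearts at harvest and the region of the heart sampled were not stated in the sources used here. Nothing in the labels says that libraries of a group came from separate animals, so p-values measure the spread between these libraries.

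Muscle cells spend ATP at the contractile filaments and ion pumps and remake it in mitochondria. In the mitochondrial intermembrane space, Ckmt2 moves a phosphate group from ATP to creatine, phosphocreatine diffuses into the cytosol, and Ckm at the filaments and pumps turns it back into ATP. Slc25a4 and Slc25a5 exchange ATP for ADP across the inner membrane, Vdac1 passes metabolites through the outer membrane, and Ak1 converts ADP into ATP and AMP. Cardiomyocytes make little creatine of their own and take it up through Slc6a8.

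Some libraries stood apart or went against their labels, which bears on every genotype comparison that follows. Piezo1, the targeted gene, was at 72.2 and 82.0 CPM (the deposited counts scaled to TMM-adjusted library size) in fl/fl-Sham and 76.7 and 88.3 in CKO-Sham. It was at 53.5 and 64.8 in fl/fl-MI and 56.3 and 64.6 in CKO-MI, so the libraries labelled CKO were not lower. In bulk myocardium this cannot show whether cardiomyocytes lost the gene, as the authors found Piezo1 in endothelial and other cells of human heart too. They checked the knockout by Western blotting of isolated cardiomyocytes. Esr1, the receptor whose mouse ligand-binding domain forms part of MerCreMer, was at 331 to 707 CPM in fl/fl-MI 2, CKO-MI 1 and CKO-MI 2 and at 5.52 to 8.36 in the other 5 libraries. The second fl/fl-MI library also held atrial genes, with Bmp10 at 3834 CPM against 10.3 to 18.8 elsewhere. Groups are therefore named as labelled, and for results on which fl/fl-MI 2 bears strongly the value without it is given as well. Counts summed to between 73821747 and 88117573 per library, and mitochondrially encoded genes took 43.1% to 46.4% of them in sham and 19.9% to 24.2% in MI libraries.

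Of the 10 genes, 3 fell in MI against sham with the genotypes averaged, namely Ckm, Ckmt2 and Slc25a4, and 2 rose, namely Slc6a8 and Vdac1. The other 5 did not pass the test. A gene was called at a Benjamini-Hochberg adjusted p under 0.05 over all 14028 genes tested with edgeR's quasi-likelihood test. Among all genes tested, 18.3% were called lower and 22% higher in MI, so the share of these 10 genes called, 3 lower and 2 higher, was near the background. The members are therefore described below gene by gene and by the ratios between isoforms. In bulk tissue, fewer cells of a type and less RNA per cell cannot be told apart.

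**Figure D1:**
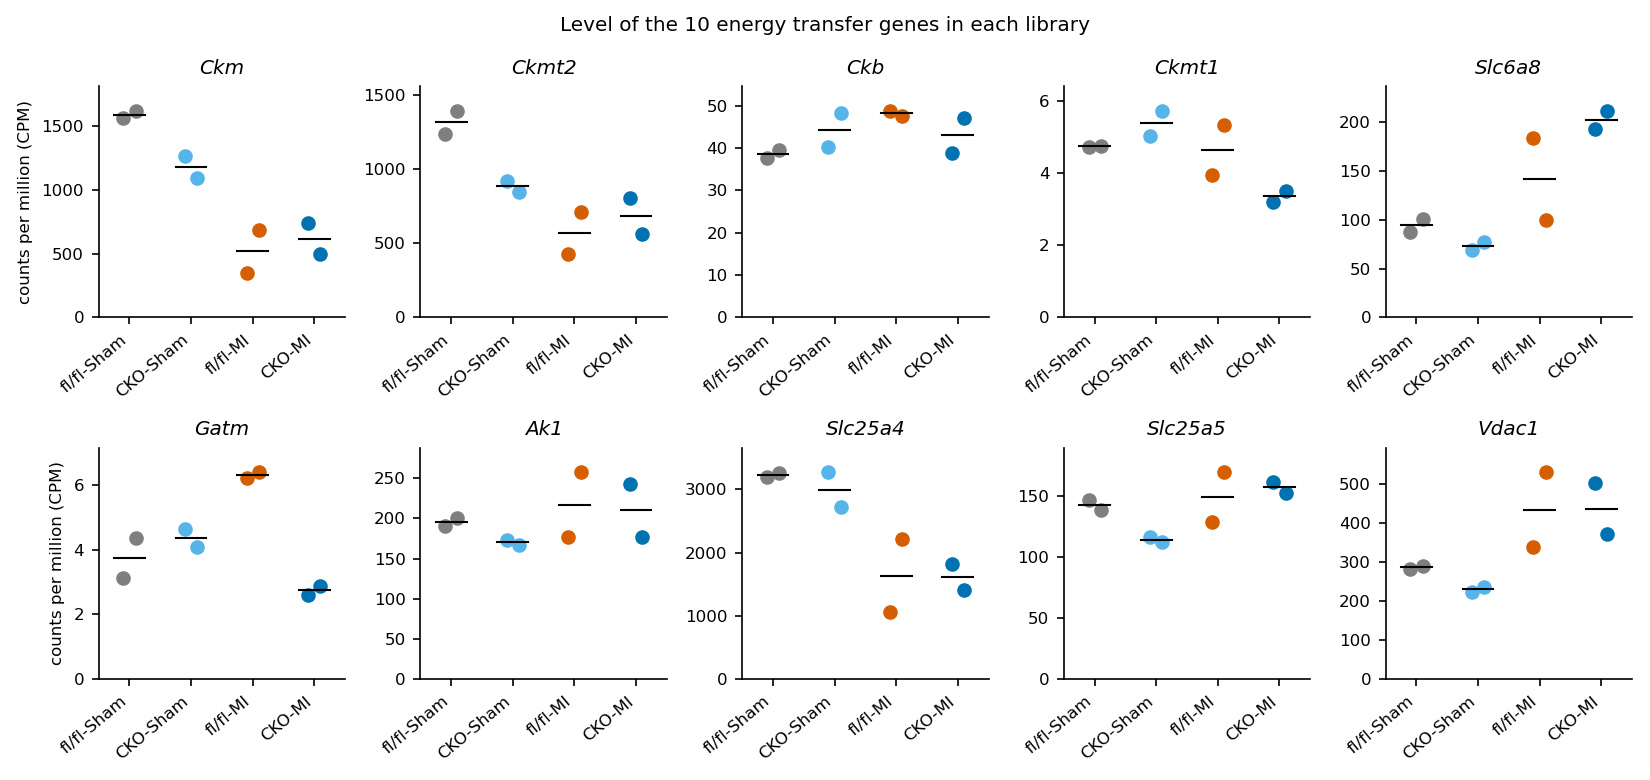
CPM, the scaled counts, of each of the 10 genes (vertical axes, each starting at 0) in the 8 libraries by labelled group (horizontal axes), with points for libraries and black bars for group means. Ckm, Ckmt2 and Slc25a4 lie lower in all 4 MI libraries than in all 4 sham libraries, Vdac1 lies higher, and Gatm is split by genotype label after MI.

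Ckm (ENSMUSG00000030399, chromosome 7 of GRCm38, 19404776 to 19422841, plus strand) encodes the cytosolic muscle creatine kinase. Its level was 1561 and 1620 CPM in fl/fl-Sham, 1268 and 1096 in CKO-Sham, 349.8 and 686 in fl/fl-MI, and 741 and 493 in CKO-MI. All 4 MI libraries were below all 4 sham libraries, and the lowest was fl/fl-MI 1. The log2 fold change was -1.28 (SE 0.25, 95% confidence interval -1.86 to -0.70, adjusted p = 0.0072), or 2.43-fold lower in MI. This was the largest fall among the 10 genes, and it passed the test without each library in turn, with adjusted p up to 0.034. On the log2(TPM + 1) scale its change was -0.19 and the call was lost (limma, adjusted p = 0.32), against a median of 0.92 over all genes.

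Ckmt2 (ENSMUSG00000021622, chromosome 13, 91853387 to 91876885, minus strand) encodes the sarcomeric mitochondrial creatine kinase. It measured 1238 and 1393 CPM in fl/fl-Sham, 921 and 844 in CKO-Sham, 428 and 709 in fl/fl-MI, and 805 and 561 in CKO-MI. The groups did not overlap, but the highest MI library, CKO-MI 1, lay just under CKO-Sham 2. The log2 fold change was -0.79 (SE 0.20, interval -1.27 to -0.31, adjusted p = 0.021), a smaller fall than that of Ckm. The call was lost without any 1 of the 4 sham libraries, with adjusted p from 0.057 to 0.080, and without CKO-MI 2, with adjusted p = 0.061. On the log2(TPM + 1) scale its change was 0.31, the opposite sign, against a median of 0.92 over all genes on that scale.

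The bases upstream of Ckm and Ckmt2 are shown because these enzymes work as a pair and fell together, and the windows differ in the E-boxes they hold. The lines give the RefSeq promoter windows (GRCm38.p6, gene strand) up to the first annotated exon or the start site. Capitals mark an E-box, CAGCTG or CACCTG, the kind of site that muscle regulatory factors of the basic helix-loop-helix family bind. The Ckm stretch is chr7:19410844-19411024 on the plus strand, and the Ckmt2 stretch is chr13:91876886-91877135 on the minus strand. The Ckm stretch lies within the Ckm locus given above and ends where the transcript with 97.5% to 100% of Ckm transcript FPKM begins.
Ckm: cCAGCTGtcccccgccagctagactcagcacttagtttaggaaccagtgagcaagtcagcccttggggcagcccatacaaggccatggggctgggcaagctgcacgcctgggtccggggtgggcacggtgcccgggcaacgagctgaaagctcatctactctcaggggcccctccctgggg
Ckmt2: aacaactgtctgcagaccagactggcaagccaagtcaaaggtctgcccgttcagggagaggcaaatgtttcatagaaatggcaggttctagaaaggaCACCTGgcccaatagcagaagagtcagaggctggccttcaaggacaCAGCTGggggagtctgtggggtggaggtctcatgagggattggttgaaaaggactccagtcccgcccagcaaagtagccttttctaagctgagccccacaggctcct
Ckm held CAGCTG at 249 bases before the start site and Ckmt2 held CACCTG at 153 and CAGCTG at 107 bases before it. Of the 32851 promoter windows of the same length in the table, CAGCTG was in 16.3% and CACCTG in 20.2%, so such matches are frequent. With TATAAA (in 13.6% of windows) and AAGGTCA, the string that estrogen-related receptors recognise (in 4.72%), 4 strings were searched on both strands. CAGCTG reads the same on either strand, the others do not, and no matches overlapped. Windows were found for 9 of the 10 genes, several for some, and none for Slc6a8. CAGCTG was in a window of 4 of the 9, CACCTG in 5, TATAAA in 3 and AAGGTCA in 3. These are counts of genes, whereas the shares above are of single windows, so the 2 cannot be compared directly. The 3 genes with AAGGTCA (Ckmt1, Ak1 and Vdac1) are also those with more than 1 window. A match is a string of letters and says nothing about binding in these hearts.

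Ckb (ENSMUSG00000001270, chromosome 12, 111669361 to 111672338, minus strand) encodes the brain-type cytosolic creatine kinase, which in adult heart is a minor isoform next to Ckm. It was at 37.6 and 39.4 CPM in fl/fl-Sham, 40.3 and 48.4 in CKO-Sham, 48.8 and 47.7 in fl/fl-MI, and 38.8 and 47.1 in CKO-MI. The groups overlapped, and the log2 fold change was 0.14 (SE 0.11, interval -0.12 to 0.39, adjusted p = 0.34). Its promoter, chr12:111672339-111672588 on the minus strand, is shown as the contrast to Ckm within the cytosolic pair, with the TATAAA string in capitals at 28 bases before the start site and no E-box of either spelling.
Ckb: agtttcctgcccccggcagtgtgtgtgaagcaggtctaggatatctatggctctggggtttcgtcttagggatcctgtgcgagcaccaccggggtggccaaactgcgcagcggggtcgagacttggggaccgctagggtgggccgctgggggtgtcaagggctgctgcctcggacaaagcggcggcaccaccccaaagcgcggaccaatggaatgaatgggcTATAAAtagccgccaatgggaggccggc
Ckmt1 (ENSMUSG00000000308, chromosome 2, 121357714 to 121363737, plus strand) encodes the ubiquitous mitochondrial creatine kinase. It was near the low end of the values, at 4.74 to 5.74 CPM in sham and 3.21 to 5.36 in MI libraries. Its log2 fold change of -0.36 (SE 0.18, interval -0.77 to 0.06, adjusted p = 0.15) did not pass the test, and its sign turned to plus on the FPKM and TPM scales.

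Since Ckm and Ckb did not move alike, isoforms were compared as ratios within a library, which do not depend on the scaling of libraries. The denominators, Ckm and Slc25a4, had already fallen in CPM without overlap between sham and MI. On the TMM scale Ckm changed by -1.28 and Slc25a4 by -0.94, while Ckb was at 0.14, Slc25a5 at 0.26 and Ckmt2 at -0.79. On that scale the higher ratios therefore mostly restate the falls of the denominators, and the Ckmt2 to Ckm ratio wholly so. The ratio tests thus add little to those falls, and how often other gene pairs separate MI from sham was not tested. FPKM, which divides by gene length, was used here, and the 3 ratios were tested by exact two-sided permutation of 4 MI against 4 sham libraries, where the smallest p possible is 0.0286. The Ckb to Ckm ratio was 0.0242 and 0.0245 in fl/fl-Sham, 0.0320 and 0.0444 in CKO-Sham, 0.140 and 0.0698 in fl/fl-MI, and 0.0526 and 0.0961 in CKO-MI. Every MI library was above every sham library, by 1.47 on the log2 scale on average, or 2.77-fold (exact permutation p = 0.0286, and 0.0286 adjusted over the 3 ratios). Thus the brain-type share rose relative to the muscle type, while Ckb itself did not pass its own test on the TMM scale. On log2(FPKM + 1), Ckb was called higher at 0.66 (limma, adjusted p = 0.0071). The median over all genes on that scale was 0.41, and 50.1% of all genes were called higher on it.

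The Ckmt2 to Ckm ratio was 1.55 and 1.69 in fl/fl-Sham, 1.42 and 1.51 in CKO-Sham, 2.40 and 2.03 in fl/fl-MI, and 2.13 and 2.23 in CKO-MI. It was higher in all 4 MI libraries by 0.51 on the log2 scale (SD 0.10 in each of sham and MI, n = 4), or 1.42-fold, with the same exact permutation p of 0.0286. This ratio varied least among libraries, and the fl/fl-MI 2 library did not stand apart in it. In shares of the summed creatine kinase FPKM, Ckm made up 36.9% to 40.6% in sham and 28.2% to 32.2% in MI, Ckmt2 57.9% to 62.1% in sham and 65.3% to 67.5% in MI, and Ckb 0.902% to 1.73% in sham and 1.65% to 3.95% in MI. These shares rest on the length assigned to Ckm, whose 2742-base transcript ENSMUST00000208710 took 97.5% to 100% of its transcript FPKM. Its other transcript has 1235 bases. In CPM, which is not divided by length, Ckm was above Ckmt2 in all 4 sham libraries and below it in all 4 MI libraries. The 4 creatine kinases together summed to 1995 to 3057 CPM in sham and 830.2 to 1588 in MI, with no overlap, a sum that Ckm and Ckmt2 dominate. In FPKM the same sum was 754 to 1244 in sham and 545 to 881 in MI, ranges that overlap.

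**Figure D2:**
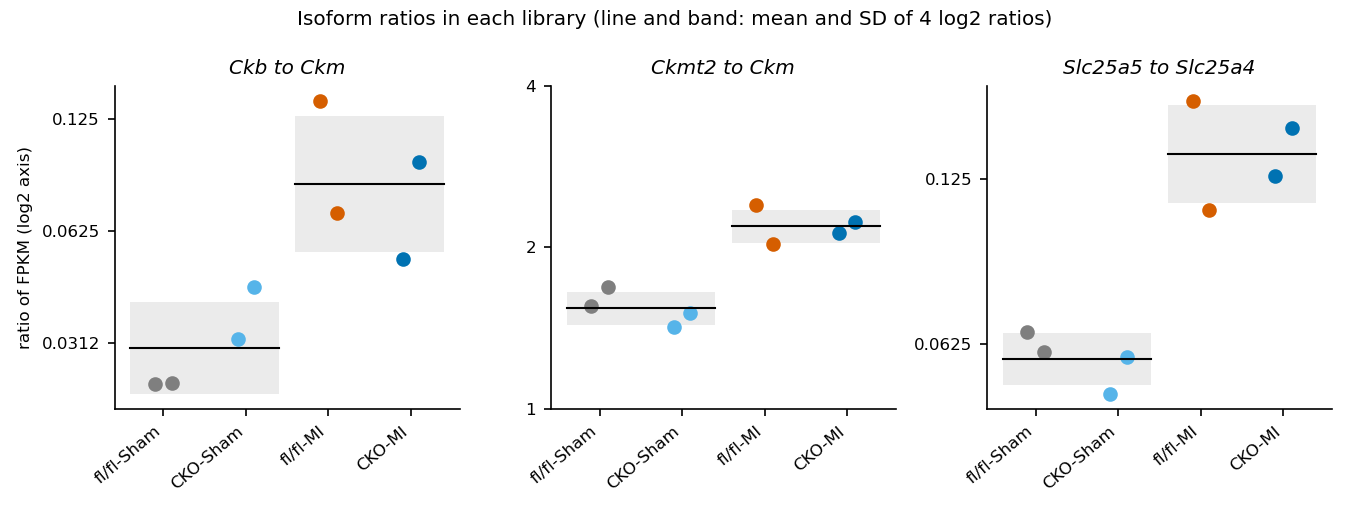
Ratios of FPKM between isoforms (vertical axes, log2 scale) in each library by labelled group, with a line and a shaded band for the mean and SD of the 4 log2 ratios of sham and of MI libraries. In all 3 panels the 4 MI libraries lie above the 4 sham libraries.

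Slc25a4 (ENSMUSG00000031633, chromosome 8, 46206797 to 46211284, minus strand) encodes the adenine nucleotide translocase of heart and skeletal muscle and had the highest FPKM of the 10 genes. It was at 3196 and 3264 CPM in fl/fl-Sham, 3271 and 2719 in CKO-Sham, 1055 and 2208 in fl/fl-MI, and 1815 and 1406 in CKO-MI. All MI libraries were lower than all sham libraries, with a wide spread between the 2 fl/fl-MI libraries. The log2 fold change was -0.94 (SE 0.25, interval -1.53 to -0.35, adjusted p = 0.024), or 1.92-fold lower. As for Ckmt2, the call was lost without any 1 sham library or without CKO-MI 2, with adjusted p from 0.056 to 0.085, and its change on the log2(TPM + 1) scale was 0.15 against a median of 0.92 over all genes.

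Slc25a5 (ENSMUSG00000016319, chromosome X, 36795651 to 36798807, plus strand) encodes the translocase of proliferating and many non-muscle cells. It was at 147 and 138 CPM in fl/fl-Sham, 116 and 112 in CKO-Sham, 128 and 169 in fl/fl-MI, and 161 and 153 in CKO-MI. The groups overlapped through fl/fl-MI 1, and the log2 fold change of 0.26 (SE 0.12, interval -0.02 to 0.54, adjusted p = 0.12) did not pass the test. It was called without fl/fl-MI 1, with adjusted p = 0.020. The Slc25a5 to Slc25a4 ratio of FPKM was 0.0656 and 0.0605 in fl/fl-Sham, 0.0506 and 0.0591 in CKO-Sham, 0.174 and 0.110 in fl/fl-MI, and 0.127 and 0.155 in CKO-MI. It was 2.37-fold higher in MI, or 1.24 on the log2 scale, with no overlap (exact permutation p = 0.0286). Slc25a5 thus took 4.82% to 6.16% of the translocase FPKM in sham and 9.87% to 14.8% in MI libraries. The sequences of these paralogs are similar, and how reads shared between them or with pseudogenes were counted was not given in the sources used here. The annotated pseudogene Slc25a5-ps had at most 0.148 CPM.

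Vdac1 (ENSMUSG00000020402, chromosome 11, 52360860 to 52389397, plus strand) encodes the most abundant voltage-dependent anion channel of the mitochondrial outer membrane. It was at 282 and 291 CPM in fl/fl-Sham, 224 and 236 in CKO-Sham, 338 and 531 in fl/fl-MI, and 504 and 372 in CKO-MI. All 4 MI libraries were above all 4 sham libraries, and the highest was fl/fl-MI 2. The log2 fold change was 0.76 (SE 0.18, interval 0.35 to 1.18, adjusted p = 0.014), or 1.70-fold higher. It was 0.58 without fl/fl-MI 2, with adjusted p = 0.0081. Without any 1 of the sham libraries the call was lost, with adjusted p from 0.051 to 0.063. Vdac1 therefore moved opposite to Slc25a4, its partner in the path of ATP out of the mitochondrion.

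The Vdac1 promoter windows are shown because it is the 1 called gene with an AAGGTCA string in a window, and genes of the estrogen-related receptor pathway are taken up below. The first, chr11:52360601-52360850, ends where the transcript with 97.0% to 98.8% of Vdac1 transcript FPKM begins, and holds none of the 4 strings. The second, chr11:52361347-52361596, lies further into the gene, outside annotated exons. Capitals mark CACCTG at 199 bases before its start site and TGACCTT, the reverse complement of AAGGTCA, at 106 bases before it.
Vdac1 window 1: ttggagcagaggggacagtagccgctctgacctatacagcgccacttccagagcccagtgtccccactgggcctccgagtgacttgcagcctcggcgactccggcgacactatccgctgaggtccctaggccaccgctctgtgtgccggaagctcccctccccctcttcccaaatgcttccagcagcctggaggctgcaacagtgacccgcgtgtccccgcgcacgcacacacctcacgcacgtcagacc
Vdac1 window 2: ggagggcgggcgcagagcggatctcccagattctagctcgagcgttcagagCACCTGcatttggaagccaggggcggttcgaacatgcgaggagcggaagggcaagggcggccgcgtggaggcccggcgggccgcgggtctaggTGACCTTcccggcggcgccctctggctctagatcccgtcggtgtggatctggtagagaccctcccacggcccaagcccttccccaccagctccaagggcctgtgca

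Slc6a8 (ENSMUSG00000019558, chromosome X, 73673150 to 73682502, plus strand) encodes the sodium-coupled creatine transporter of the plasma membrane. It was at 88.0 and 101 CPM in fl/fl-Sham, 68.8 and 77.4 in CKO-Sham, 184 and 100 in fl/fl-MI, and 193 and 212 in CKO-MI. The second fl/fl-MI library lay within the sham range and the other 3 MI libraries lay far above it. The log2 fold change was 1.03 (SE 0.19, interval 0.57 to 1.49, adjusted p = 0.0068), or 2.04-fold higher, the largest rise among the 10 genes. It was 1.22 without fl/fl-MI 2 and 0.76 without fl/fl-MI 1, where Vdac1 rose more (0.89), and it passed the test without each library in turn, with adjusted p up to 0.038. The transcript ENSMUST00000114465 made up 58.2% to 80.9% of Slc6a8 transcript FPKM in sham and 65.0% to 83.4% in MI, ranges that overlapped. A shorter transcript, ENSMUST00000170614, took 10.4% to 20.3% in sham and 5.39% to 6.83% in MI, and such shares are estimates that depend on the authors' model.

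Gatm (ENSMUSG00000027199, chromosome 2, 122594467 to 122611303, minus strand) encodes the enzyme that makes guanidinoacetate, the precursor of creatine, chiefly in kidney and other organs. It was low, at 3.12 and 4.37 CPM in fl/fl-Sham, 4.65 and 4.10 in CKO-Sham, 6.24 and 6.41 in fl/fl-MI, and 2.60 and 2.90 in CKO-MI. Both fl/fl-MI libraries were above all sham libraries and both CKO-MI libraries were below them, so the averaged MI change was 0.04 (SE 0.18, interval -0.39 to 0.47, adjusted p = 0.86). Ak1 (ENSMUSG00000026817, chromosome 2, 32621758 to 32635058, plus strand), the cytosolic adenylate kinase of muscle, was at 190.5 and 200.5 CPM in fl/fl-Sham, 173 and 167 in CKO-Sham, 176 and 258 in fl/fl-MI, and 243 and 177 in CKO-MI. The groups overlapped, with a log2 fold change of 0.23 (SE 0.16, interval -0.16 to 0.61, adjusted p = 0.30). Transcript ENSMUST00000113277 made up 76.5% or more of Ak1 transcript FPKM in each library.

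Counted over all genes, 19.5% of genes had all 4 MI libraries below all 4 sham libraries and 20.9% had them all above. Among the 10 genes this held for 3 (Ckm, Ckmt2 and Slc25a4) and 1 (Vdac1). By level per length, the FPKM means of the sham libraries (± SD, n = 4) ran from Slc25a4 (1053 ± 107) through Ckmt2 (589 ± 148), Ckm (379 ± 71.7), Vdac1 (78.4 ± 10.8), Slc25a5 (62.0 ± 8.14) and Ak1 (56.1 ± 5.69) to Slc6a8 (12.8 ± 2.31), Ckb (11.4 ± 1.27), Ckmt1 (1.60 ± 0.14) and Gatm (1.07 ± 0.20). Slc25a5 and Ak1, and Slc6a8 and Ckb, differed by less than the larger SD of the pair. The place of Ckm after Ckmt2 rests on the length of the transcript assigned to Ckm, as given above. In MI libraries Slc6a8 (39.4 ± 13.2) was above Ckb (18.6 ± 3.14) on this scale.

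The size of these changes depends on how libraries are scaled. The median log2 change of all genes tested was 0.03 on the TMM scale, 0.41 on log2(FPKM + 1) and 0.92 on log2(TPM + 1), while mitochondrially encoded genes, which count in the FPKM and TPM totals, fell in share. On log2(FPKM + 1), limma called 7 of the 10 genes, 6 higher (Ckb, Slc6a8, Gatm, Ak1, Slc25a5 and Vdac1) and 1 lower (Ckm). On log2(TPM + 1) it called 7 higher and none lower, against 2 higher and 3 lower on the TMM scale. Over all genes, 50.1% were called higher and 5.97% lower on log2(FPKM + 1), and 76.7% higher and 1.98% lower on log2(TPM + 1), so these counts of members are near the background of their scale. Relative to the median of all genes on the same scale, Ckm was at -1.31, -1.17 and -1.11 and Slc25a4 at -0.97, -0.84 and -0.77 on the TMM, FPKM and TPM scales. Slc6a8 was at 0.99, 1.08 and 1.16 and Vdac1 at 0.73, 0.88 and 0.95 in the same order.

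Other features of the libraries moved with MI. The 10 cardiomyocyte markers summed to 32674 to 36855 CPM in sham and 18181 to 35124 in MI, with 2 higher (Actn2 and Ryr2), 4 lower (Tnni3, Tnnc1, Myl2 and Myl3) and 4 that did not pass the test. All 7 fibroblast markers rose, from sums of 1406 to 1551 to sums of 2218 to 6406 CPM, and all 5 endothelial markers fell, from 1244 to 1308 to 419 to 656. Of the 6 macrophage markers, 3 rose. Among the other marker lists, 4 of 4 erythroid and 1 of 5 atrial markers rose, 1 of 5 smooth muscle markers fell, 1 of 4 neural and glial markers tested rose and 1 fell, and none of 3 adipocyte markers tested passed the test. The 8 skeletal muscle markers summed to at most 11.1 CPM in any library, with Myh1, Myh2 and Myh4 at 0 in some, although Ckm and Slc25a4 are also skeletal muscle genes. Relative to the mean log2 CPM of the cardiomyocyte markers, Ckm was 1.06 lower, Slc25a4 0.72 lower and Ckmt2 0.55 lower in MI on the log2 scale, and Slc6a8 1.27, Vdac1 1.01 and Ak1 0.48 higher, each without overlap, where 7.09% of all genes lay lower and 23.6% higher without overlap. The part of cell composition in the changes was not tested.

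Transcript length also moved with MI. Genes in the shortest quartile by length of the main transcript had a median log2 change of -0.25 and those in the longest quartile 0.22, with a Spearman correlation of 0.24 across the 14028 genes, which are not independent. By main transcript, Ckm (2742 bases) and Slc6a8 (3314 bases) were in the same length quartile, while the other Ckm transcript has 1235 bases. Whether length is a cause of the changes was not tested. With a length trend removed from each library, the log2 changes were -1.38 for Ckm, -0.71 for Ckmt2, -0.96 for Slc25a4, 0.92 for Slc6a8 and 0.75 for Vdac1, all called, and Slc25a5 was called as well at 0.42 (limma, adjusted p = 0.016).

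**Figure D3:**
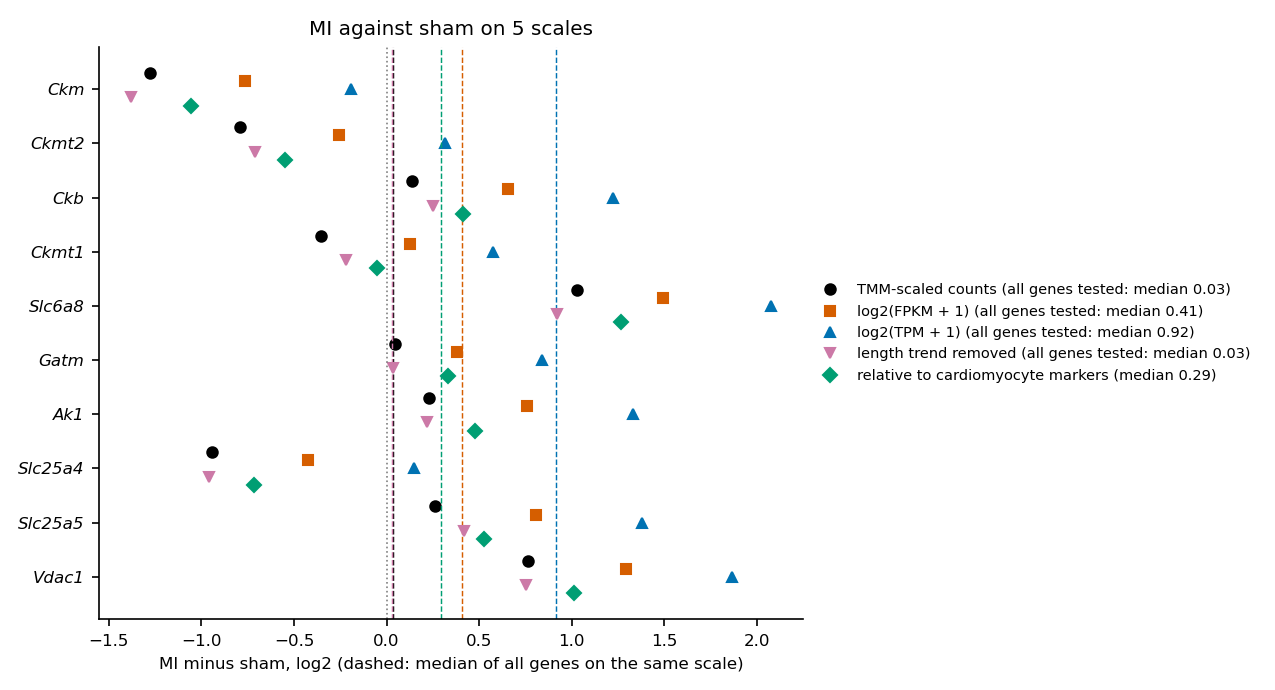
MI minus sham on the log2 scale (horizontal axis) for each of the 10 genes on 5 scales, with dashed lines for the median of all genes tested on the same scale and in the same colour. Ckm, Ckmt2 and Slc25a4 lie left of the dashed line on each scale and Slc6a8 and Vdac1 lie right of it, while Ckmt2 and Slc25a4 cross 0 on the TPM scale.

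The genotypes were then taken apart, with the MI change in each measured against its own sham group. In fl/fl, 2 of the 10 genes were called, against 18.5% of all genes. Ckm fell by 1.62 (SE 0.35, adjusted p = 0.025) and Ckmt2 by 1.21 (SE 0.29, adjusted p = 0.032) on the log2 scale. In CKO, 2 of the 10 genes were called, against 24.7% of all genes. Slc6a8 rose by 1.47 (SE 0.28, adjusted p = 0.013) and Vdac1 by 0.93 (SE 0.25, adjusted p = 0.037). The values of the genes called in 1 genotype were in the same direction in the other, at -0.94 for Ckm and -0.37 for Ckmt2 in CKO, and at 0.59 for Slc6a8 and 0.60 for Vdac1 in fl/fl, none passing the test. Without the second fl/fl-MI library, 4 genes were called in fl/fl (Ckm, Ckmt2, Slc6a8 and Slc25a4) and 6 in CKO, while the share of all genes called went to 29.5% and 41.3%. Where leaving out a library leaves 1 in its group, that library is assumed to vary like those of the other groups. The calls in fl/fl were lost without any 1 sham library, and those in CKO without any 1 CKO library. Without either fl/fl-Sham library, Slc6a8 alone kept its call in CKO. In all these fits a smaller share of all genes was called as well, so the loss was not particular to these 10 genes.

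The difference between the MI changes was tested as the interaction of genotype and MI. It was called for none of the 10 genes, against 0% of all genes, and 1 gene, Gatm, had an unadjusted p under 0.05, against 8.49% of all genes. The interaction was 0.68 for Ckm (interval -0.46 to 1.82), 0.84 for Ckmt2 (interval -0.12 to 1.80), 0.88 for Slc6a8 (interval -0.03 to 1.79) and 0.33 for Vdac1 (interval -0.50 to 1.16) on the log2 scale, and these intervals leave room for differences of over 2-fold in each. Without fl/fl-MI 1 the Slc6a8 interaction was called, along with 5.35% of all genes, but fl/fl-MI is then the library with atrial genes alone, whose Slc6a8 lay in the sham range in CPM. Without fl/fl-MI 2 none of the 10 was called.

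Whether the Piezo1 genotype changed the level after MI was compared directly between CKO-MI and fl/fl-MI. None of the 10 genes was called with edgeR, against 0% of all genes, and 1 (Gatm) had an unadjusted p under 0.05, against 8.31% of all genes. Gatm was 2.30-fold lower in CKO-MI, at a log2 difference of -1.20 (SE 0.26, interval -1.82 to -0.59, unadjusted p = 0.0024, adjusted p = 0.46), and was called with DESeq2. The differences were 0.25 for Ckm (interval -0.56 to 1.06), 0.26 for Ckmt2 (interval -0.41 to 0.94), 0.51 for Slc6a8 (interval -0.13 to 1.16), -0.02 for Slc25a4 (interval -0.85 to 0.81) and 0.01 for Vdac1 (interval -0.58 to 0.60). These depended on the fl/fl-MI libraries, which lay far apart. Without fl/fl-MI 1, which leaves the library with atrial genes as the sole fl/fl-MI value, Ckm was at -0.13 and Slc6a8 at 1.03, and Slc6a8 and Gatm were called, along with 11.9% of all genes. Without fl/fl-MI 2, Ckm was at 0.82, Slc25a4 at 0.61 and Slc6a8 at 0.14, and none was called, against 0.192% of all genes.

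In sham hearts, CKO against fl/fl gave no call among the 10 genes, against 0.00713% of all genes, and none had an unadjusted p under 0.05, against 3.89% of all genes. The largest difference was -0.58 for Ckmt2 (SE 0.29, interval -1.26 to 0.11, unadjusted p = 0.086, adjusted p = 0.9997), with both CKO-Sham libraries below both fl/fl-Sham libraries.

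**Figure D4:**
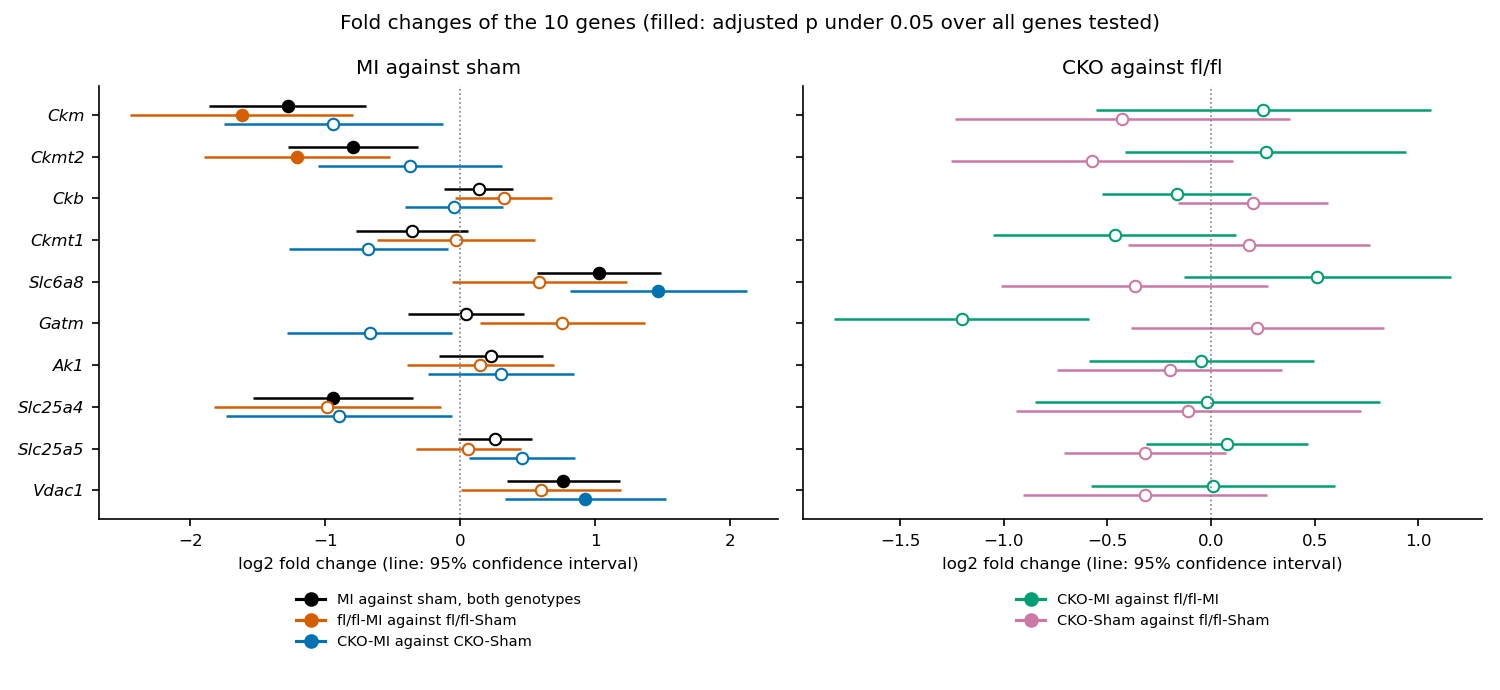
Log2 fold changes with 95% confidence intervals (horizontal axes) of the 10 genes, on the left for MI against sham in the genotypes together and apart and on the right for CKO against fl/fl after MI and after sham surgery. Filled points passed an adjusted p under 0.05 over all genes tested, 5 with the genotypes together, 2 in each genotype and none on the right.

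The remaining genes of the pathway were counted in 8 lists with 72 genes, of which 65 were tested. In MI against sham 18 rose, 5 fell and 42 did not pass the test, with a median log2 change of 0.12 beside 0.03 over all genes. That is 18 and 5 of 65, to be read against the 22% of all genes called higher and 18.3% called lower. The counts for single lists below have the same background, and all come from the fit of 8 libraries. Both the totals, the small number of falls above all, and some of the lists depended on the second fl/fl-MI library. Log2 changes without it are given below for some genes. Among the adenylate kinases, which keep AMP, ADP and ATP in balance, 2 of 5 tested rose and none fell. Ak4, a mitochondrial matrix form, went from 9.29 to 11.1 CPM in sham to 20.9 to 40.8 in MI, a log2 change of 1.58 (SE 0.22, adjusted p = 0.0023). Ak3, the matrix GTP:AMP form, rose by 0.33 (adjusted p = 0.024), and Ak6 at 0.34 did not pass the test (adjusted p = 0.058).

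Among the nucleoside mono- and diphosphate kinases, which pass phosphate between nucleotides, 3 of 10 fell and 1 rose. Cmpk2, a mitochondrial pyrimidine nucleotide kinase that interferon induces, fell from 24.7 to 27.6 CPM to 4.84 to 8.81, a log2 change of -1.79 (SE 0.19, adjusted p = 0.0011). Nme2, a nucleoside diphosphate kinase, was at -0.82 (adjusted p = 0.0048) and Guk1, guanylate kinase, at -0.77 (adjusted p = 0.0044), both without overlap between sham and MI.

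In the list for AMP breakdown and salvage, 3 of 14 rose and 1 fell. The 3 with the smallest p were nucleotidases, which strip the phosphate from AMP or IMP. Nt5e, the cell surface enzyme CD73 that makes extracellular adenosine, went from 11.3 to 14.6 CPM to 20.1 to 35.7 (log2 change 1.25, adjusted p = 0.0016). Nt5c1a, the cytosolic AMP nucleotidase of heart, went from 0.443 to 0.665 CPM to 2.06 to 6.59 (log2 change 2.86, SE 0.45, adjusted p = 0.0037), and Nt5c2 was at 0.51 (adjusted p = 0.0099).

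AMPK, the kinase that senses AMP, showed 3 of 7 subunits higher and none lower in the fit of all 8 libraries. The subunits not called in that fit were Prkab1 (-0.43), Prkag1 (-0.13), Prkaa1 (-0.10) and Prkag3 (0.29). Without fl/fl-MI 2 these were at -0.77, -0.33, 0.0008 and 0.51 on the log2 scale, so the absence of falls depended on that library. The catalytic subunit Prkaa2 went from 22.1 to 44.1 CPM in sham to 76.7 to 129 in MI (log2 change 1.77, adjusted p = 0.0012). The regulatory subunit Prkab2 went from 17.7 to 23.0 CPM to 41.99 to 100.4 (log2 change 1.92, adjusted p = 0.0024). For Prkag2 the value of 142 CPM in fl/fl-MI 2 stood above 30.5 to 36.7 in the other MI libraries and 17.6 to 21.1 in sham (log2 change 1.49, SE 0.38, adjusted p = 0.020). Without fl/fl-MI 2 its log2 change was 0.85 (SE 0.10, adjusted p = 0.00062).

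Of 5 phosphate and adenine nucleotide carriers tested, 1 rose. It was Slc25a23, an ATP-magnesium and phosphate carrier (log2 change 0.52, adjusted p = 0.043), while Slc25a25 at 0.74 (adjusted p = 0.10) and Slc25a42 at -0.29 (adjusted p = 0.27) did not pass the test. Without fl/fl-MI 2, Slc25a23 was at 0.35, Slc25a25 at 0.41 and Slc25a42 at -0.57, so the absence of a fall here depended on that library. Around Vdac1 at the outer membrane, 2 of 7 rose and 1 fell. Hexokinases Hk1 and Hk2, which bind the channel, went from 91.9 to 105 CPM to 172 to 189 (log2 change 0.86, adjusted p = 0.0012) and from 68.2 to 93.2 CPM to 138 to 254 (log2 change 1.13, adjusted p = 0.0028). Atpif1, the inhibitor of the ATP synthase, fell by 0.79 (adjusted p = 0.0065).

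In the list for creatine and arginine-glycine supply, 1 of 5 rose, the arginine transporter Slc7a1 (log2 change 0.82, adjusted p = 0.011). Gamt, the enzyme after Gatm in creatine synthesis, was at -0.53 (adjusted p = 0.28) and the taurine transporter Slc6a6 at -0.07 (adjusted p = 0.68). Among 12 transcription regulators of energy genes, 5 rose and none fell in the fit of all 8 libraries. Ppara, a fatty acid receptor, went from 2.34 to 5.12 CPM to 10.97 to 19.9 (log2 change 2.11, adjusted p = 0.0011). Esrrg, an estrogen-related receptor, went from 6.10 to 13.3 CPM to 25.2 to 37.9 (log2 change 1.69, adjusted p = 0.0021), and the coactivator Ppargc1a from 24.4 to 31.1 CPM to 43.6 to 109.8 (log2 change 1.42, adjusted p = 0.0040). The other 2 were Ppargc1b and Esrrb. Without fl/fl-MI 2, the 5 that rose were at 0.68 (Esrrb) to 1.86 (Ppara). Esrra, a further estrogen-related receptor, did not pass the test at -0.18, and was at -0.35 without that library. The absence of falls in this list therefore depended on fl/fl-MI 2. Higher values for the regulators that rose thus stood beside lower values for Ckm, Ckmt2 and Slc25a4 and higher values for Slc6a8 and Vdac1 in MI against sham. In CKO-MI against fl/fl-MI, none of the 65 list genes was called, and 3 had an unadjusted p under 0.05, against 8.31% of all genes.

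**Figure D5:**
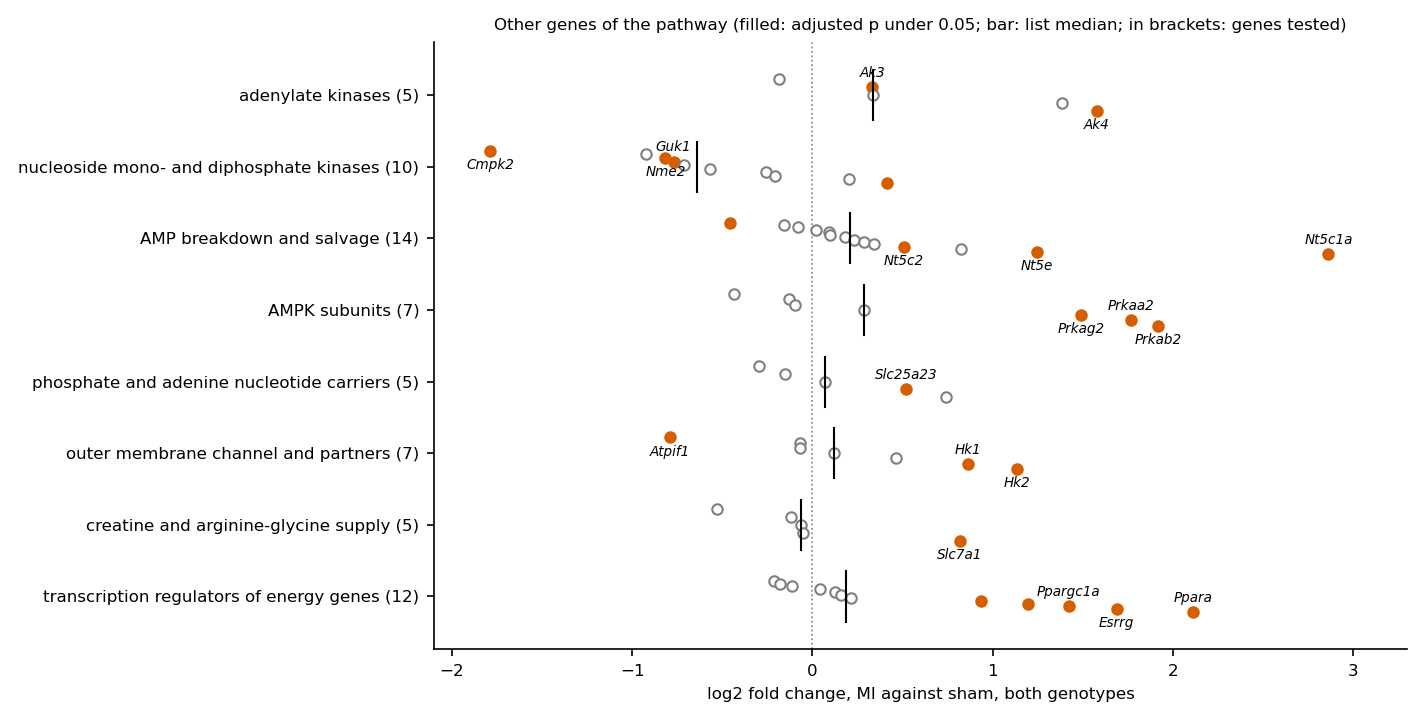
Log2 fold change in MI against sham with the genotypes averaged (horizontal axis) for the 65 tested genes of 8 lists (rows), with filled points for an adjusted p under 0.05, black bars for list medians and labels for the called genes with the smallest p. With all 8 libraries, the AMPK subunits and the transcription regulators hold called genes on the right side and none on the left. The nucleoside mono- and diphosphate kinases hold 3 of their 4 called genes on the left.

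The genes whose log2 CPM followed Ckm most closely over the 8 libraries were Acot13 (Pearson r = 0.995), Suclg1 (0.993), Bola3 (0.991), Sdhb (0.989) and Gm49708 (0.989). Among the members, Slc25a4 (0.974) and Ckmt2 (0.973) came nearest to Ckm. Slc6a8 was followed by Yap1 (0.993), Tmem129 (0.990), Ubfd1 (0.989), Ankle2 (0.988) and Atg5 (0.987), and among the members Vdac1 was nearest (0.63) and Ckmt1 farthest (-0.91). All these values share the sham and MI split of the same 8 libraries and describe likeness only.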

How the data were processed

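RNA of 8 libraries of mouse myocardium was analysed, grouped by their labels (2 per group). Poly(A) RNA was sequenced by the authors as read pairs and, per the labels, trimmed with cutadapt 1.9. The aligner, counter and genome build were not given in the sources used here. Gene coordinates of the 10 genes equalled GENCODE M21 on GRCm38. The authors deposited whole-number estimated counts per gene and transcript, not normalized, which pile up at multiples of 4, and FPKM, scaled by the authors to length and library size. Count totals ranged from 73821747 to 88117573 per library.

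The 14028 genes whose FPKM averaged 0.5 or more were fitted with edgeR 4.0.16 in R 4.3.3 (quasi-likelihood test, TMM, 1 mean per group, all 8 libraries). A call required a Benjamini-Hochberg adjusted p under 0.05. The script was tested on simulated data. CPM used TMM-scaled library sizes. The 10 genes, lists and markers were chosen with earlier results of these data known. By rule, all 10 genes were named, up to 3 genes per list with the smallest p in MI against sham, and for the called genes that fell and rose most the 5 genes with the highest Pearson r. Slc25a5-ps, Piezo1, Esr1, Bmp10 and the markers were named as checks. Ppargc1b, Esrrb, Esrra and the AMPK subunits Prkaa1, Prkab1, Prkag1 and Prkag3 were named after their values were seen. Ratios of FPKM were tested by exact two-sided permutation. Promoters came from RefSeq (GRCm38.p6), from 250 bases before to 50 after the start site.

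Alternatives were limma 3.58.1 on log2(FPKM + 1), log2(FPKM + 0.1) and log2(TPM + 1), no filter, a mean of 5 FPKM or more, RLE factors, mitochondrially encoded genes left out, DESeq2 1.42.0, counts divided by 4, a replicate block, only the 4 libraries compared, and each library left out. The length trend, the cardiomyocyte scaling, summed transcript FPKM and a crossed pairing were added once the data had been seen. Summaries were made with pandas 2.3.3 (Python 3.11.15). Counting strand was not stated. The loci of Ckm, Ckmt2 and Ckmt1 each overlap 1 gene on the opposite strand, with a mean of at most 2.22 CPM.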

Additional observations from a re-analysis of the deposited data

Results flagged for a closer look

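Gatm, the enzyme of the first step of creatine synthesis, moved in opposite directions in the genotypes in CPM. Both fl/fl-MI libraries were above both fl/fl-Sham libraries, and both CKO-MI libraries were below both CKO-Sham libraries. In FPKM the fall in CKO was not clear, with 1.23 and 1.06 in CKO-Sham and 0.941 and 1.21 in CKO-MI. With edgeR, neither the change in fl/fl (0.76, adjusted p = 0.083) nor that in CKO (-0.67, adjusted p = 0.10) passed the test. The interaction of genotype and MI was -1.43 on the log2 scale (SE 0.37, unadjusted p = 0.0059) and did not pass adjustment over all genes with edgeR (adjusted p = 0.57), while DESeq2 called it. Gatm stayed at 2.60 to 6.41 CPM in all libraries, and the genotype labels of these libraries are in doubt from the levels of Esr1. Piezo1 in bulk tissue does not settle them.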

How the results depend on the processing

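In MI against sham with the genotypes averaged, 5 genes were called, and 5 to 7 under the alternatives other than leaving out a library, which gave 2 to 6. Leaving out a library gave 0 to 4 in fl/fl (2 called) and 0 to 6 in CKO (2 called), 0 to 2 between CKO-MI and fl/fl-MI and 0 to 1 for the interaction (0 called in each), and 0 in sham. In fl/fl the count was 8 on log2(FPKM + 1), 8 on log2(FPKM + 0.1), 7 on log2(TPM + 1), 4 with DESeq2, 0 with only the 4 libraries compared and 5 at an unadjusted p. In CKO it was 4, 4, 6, 6, 5 and 7 in the same order. Over all genes, the first 5 of these settings called 37.5%, 38.8%, 67%, 28.8% and 1.42% in fl/fl and 36.8%, 38.4%, 62.9%, 33.7% and 34.5% in CKO, shares beside which the counts of members are to be read. No such share is given for the counts at an unadjusted p in fl/fl and CKO, and the share also moved with the library left out. Between CKO-MI and fl/fl-MI, and for the interaction, the count of members was 1 with DESeq2 and 1 at an unadjusted p, Gatm each time. Over all genes, that genotype comparison after MI gave 207 calls with DESeq2 and 0 with edgeR.

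Replicate numbers did not pair the libraries, as correlations of deviations between same-numbered libraries were -0.20 to 0.05. With the replicate number as a block, 5 genes were called with the genotypes averaged, 0 in fl/fl and 1 in CKO, against 36.2%, 12% and 19.1% of all genes. In that fit Slc25a4 between CKO-MI and fl/fl-MI was at 0.0075. With crossed numbers, a pairing chosen after the correlation of -0.20, 0 genes were called in CKO-MI against fl/fl-MI, where Slc25a4 was at 0.016.

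Signs turned in MI against sham for Ckmt2 (0.31) and Slc25a4 (0.15) on log2(TPM + 1), and for Ckmt1 (0.13, 0.18 and 0.57 on log2(FPKM + 1), log2(FPKM + 0.1) and log2(TPM + 1)). Between CKO-MI and fl/fl-MI, Slc25a4 was at 0.058, 0.059 and 0.048 on these scales and 0.0094 with no filter, beside -0.02. Over the libraries left out, Gatm ranged from -0.068 to 0.17 in MI against sham. Between CKO-MI and fl/fl-MI, Ckm ranged from -0.13 to 0.82, Ckmt2 from -0.036 to 0.67, Ak1 from -0.29 to 0.25, Slc25a4 from -0.44 to 0.61, Slc25a5 from -0.093 to 0.29, Slc6a8 from 0.14 to 1.03 and Vdac1 from -0.26 to 0.37. The Ckb to Ckm log2 ratio ranged from 1.22 to 1.69, with exact permutation p up to 0.0571. The causes were not tested. With 2 libraries per group and 1 library with atrial genes, genotype differences of over 2-fold, such as that of Gatm, did not pass adjustment with edgeR.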
